A study of Mus musculus with 6 samples.

Results

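Messenger RNA of 10 integrin subunits, Itga4, Itga5, Itga6, Itgal, Itgam, Itgav, Itgb1, Itgb2, Itgb3 and Itgb7, was compared between WT and R98S clones of Ba/F3 cells. The subunits were taken by gene symbol, and all 10 were found among the 41255 genes listed. Ba/F3 is a mouse lymphoid line that grows on interleukin-3. Every clone expressed a human RPL10 cDNA, delivered by retrovirus, and carried a short hairpin RNA against mouse Rpl10. RPL10 is a protein of the large ribosomal subunit. In the WT group (clones 28, 29 and 36) the cDNA was wild type, and in the R98S group (clones 11, 13 and 35) it coded for serine in place of arginine at residue 98. All 6 cultures received cycloheximide, which halts translating ribosomes, at 100 µg/ml for 5 min before harvest. Each clone grew from a single transduced cell of the same line and gave 1 library, so p-values measure the spread between clones of 1 line.

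Integrins are adhesion receptors made of 1 alpha and 1 beta chain, and neither chain reaches the cell surface well without a partner. The beta chain largely sets the signalling tail, while the pair sets the ligand. In blood cells, alpha4 beta1 and alpha4 beta7 bind VCAM-1 and MAdCAM-1, alphaL beta2 binds the ICAMs, alpha5 beta1 binds fibronectin, and alphav beta3 binds RGD proteins such as osteopontin. Binding is switched on from inside the cell by talin, kindlin and Rap1, and bound integrins signal back through kinases and actin adaptors.

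The values are normalized read counts, which the authors obtained by dividing the reads of a gene by the size factor of its library. Summed over the listed genes, the libraries held 21786776 to 24204991 counted reads, and 3 reads corresponded to a normalized count of 2.78 to 3.22. Rpl10, the targeted gene, was at 1883 to 3156 in the 6 clones, with overlapping groups (log2 fold change -0.07, adjusted p = 0.871, limma). This value does not measure the knock-down, which the authors checked by qPCR, because all 6 clones carry the hairpin. Whether it includes reads of the human cDNA was not tested. Genes whose normalized count averaged 10 or more were tested on the log2(normalized count + 1) scale with limma, and a gene was called at an adjusted p below 0.1. Of 11550 genes tested, 23.9% were called, 10.7% higher and 13.1% lower in R98S. With libraries scaled to the same upper quartile the balance turned, to 1453 genes higher and 1335 lower. The cell label was checked against markers: the interleukin-3 receptor and leukocyte genes were all tested, whereas the B-cell precursor genes Vpreb1, Igll1, Pax5, Rag1, Dntt and Blnk had at most 3 reads in every clone. The B-cell receptor chain genes were expressed, Cd79a at 996 to 1507 over the 6 clones and Cd79b at 143 to 705, the latter called higher in R98S (log2 fold change 1.22, adjusted p = 0.0617, limma).

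The promoters of the 3 subunits that fell are shown because these genes carry the main differences. They are the 250 bases before the RefSeq start in GRCm38.p6, given 5′ to 3′ on the gene's strand, Itgb7 at chr15:102231936-102232185 (minus strand), Itga5 at chr15:103366792-103367041 (minus strand) and Itgb1 at chr8:128685404-128685653 (plus strand). Capitals mark matches on either strand to GATA motifs (AGATAA as well as AGATAG and also TGATAA besides TGATAG), the ETS core GGAAG, the Sp1 box GGGCGG, or RUNX motifs (TGTGGT as well as TGCGGT).
Itgb7: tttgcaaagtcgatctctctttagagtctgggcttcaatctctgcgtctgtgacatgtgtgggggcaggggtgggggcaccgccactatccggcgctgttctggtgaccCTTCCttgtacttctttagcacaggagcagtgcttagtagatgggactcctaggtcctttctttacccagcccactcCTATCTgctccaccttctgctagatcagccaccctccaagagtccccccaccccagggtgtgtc
Itga5: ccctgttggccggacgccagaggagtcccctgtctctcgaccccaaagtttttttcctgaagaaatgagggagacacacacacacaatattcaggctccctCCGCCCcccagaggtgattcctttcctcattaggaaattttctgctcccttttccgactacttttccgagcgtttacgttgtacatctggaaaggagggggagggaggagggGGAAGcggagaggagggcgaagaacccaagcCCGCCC
Itgb1: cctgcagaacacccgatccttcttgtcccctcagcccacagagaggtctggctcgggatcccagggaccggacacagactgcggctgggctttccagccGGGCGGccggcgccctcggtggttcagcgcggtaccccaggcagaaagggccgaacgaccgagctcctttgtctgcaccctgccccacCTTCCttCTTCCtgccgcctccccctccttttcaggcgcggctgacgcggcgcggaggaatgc

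The Itgb7 promoter held 1 GATA match, 64 bases before the start, and 1 ETS match. The Itga5 promoter held 1 ETS and 2 Sp1 matches, and that of Itgb1 held 2 ETS and 1 Sp1 match. Of 32851 promoters, 26.5% held a GATA match, 64.1% an ETS match, 32.7% an Sp1 match and 18.6% a RUNX match. Promoters of 6 of the 10 subunits were matched. Of these, 1 held a GATA, 5 an ETS, 4 an Sp1 and 1 a RUNX match.

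Of the 10 subunits, 9 passed the filter on low values, and 4 of these were called, against 23.9% of all genes tested. Itgb7, Itgb1 and Itga5 fell in R98S and Itgb3 rose. In 3 of the 9 (Itgb7, Itgb1 and Itga5) the WT and R98S clones did not overlap, against 37.3% of all genes tested. The median log2 fold change of the 9 was -0.14, against -0.011 over all genes tested, with 6 negative and 3 positive values. Since a library is bulk RNA, fewer cells of a type and less RNA per cell cannot be told apart.

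**Figure D1:**
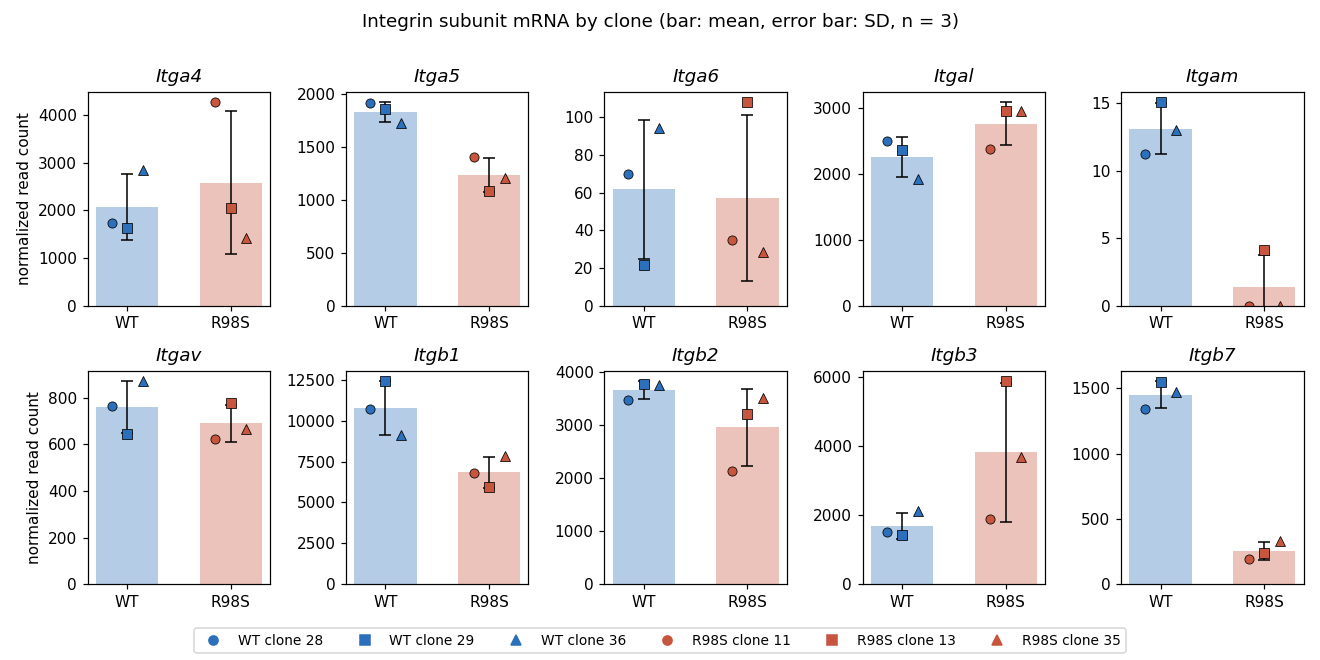
Normalized read count (vertical axis, starting at 0, a scale of its own in each panel) of the 10 integrin subunits in the WT (blue) and R98S (red) clones. Bars are means, error bars SD over 3 clones, and symbols single clones. The R98S clones lie below every WT clone for Itgb7, Itgb1 and Itga5, and the groups overlap for Itgb3, where R98S clone 13 is highest.

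Beta subunits were described first. Itgb7, which pairs with alpha4 or alphaE in gut-homing lymphocytes (chr15:102215995-102231944, minus strand), had normalized counts of 1338, 1547 and 1469 in WT clones 28, 29 and 36. In R98S clones 11, 13 and 35 it was at 192.3, 241.9 and 331.2. The highest R98S clone was far below the lowest WT clone. The mean fell from 1452 ± 106 to 255 ± 70.4 (SD, n = 3), a level 5.69-fold higher in WT, and the log2 fold change was -2.54 (SE 0.20, 95% interval -2.99 to -2.08, adjusted p = 0.000318, limma).

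Itgb1, the common beta chain of the fibronectin, laminin and VCAM-1 receptors (chr8:128685654-128733200, plus strand), had the highest level of the 10 per kilobase. It was at 10683, 12433 and 9126 in the WT clones and 6781, 5921 and 7807 in the R98S clones. Again no R98S clone reached the lowest WT clone. The mean in R98S was 0.636 of that in WT (6836 ± 945 against 10747 ± 1654, SD, n = 3). The log2 fold change was -0.65 (SE 0.15, 95% interval -0.99 to -0.31, adjusted p = 0.0261, limma).

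Itgb3, the beta chain of the vitronectin and platelet fibrinogen receptors (chr11:104608000-104670476, plus strand), was at 1516, 1428 and 2113 in the WT clones. The R98S clones had 1877, 5889 and 3691. The groups overlapped, because R98S clone 11 was below WT clone 36. The means were 1686 ± 373 and 3819 ± 2009 (SD, n = 3), and the log2 fold change of 1.05 (SE 0.37, 95% interval 0.21 to 1.90) was called at an adjusted p of 0.0906 (limma). The call was lost at a threshold of 0.05, and at 0.1 without any one of WT clone 28 (adjusted p = 0.205), WT clone 29 (0.214), R98S clone 13 (0.174) and R98S clone 35 (0.204), and without R98S clone 13 the log2 fold change was 0.67.

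Itgb2, the leukocyte beta chain (chr10:77530252-77565708), was at 3473, 3778 and 3764 in WT and at 2134, 3224 and 3526 in R98S. R98S clone 11 was the lowest, and R98S clone 35 was above WT clone 28. The log2 fold change of -0.34 did not pass the test (95% interval -0.76 to 0.074, adjusted p = 0.234, limma).

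Among alpha subunits, Itga5, the fibronectin receptor chain (chr15:103344286-103366763, minus strand), was the one that was called. It was at 1910, 1854 and 1725 in the WT clones and 1402, 1086 and 1208 in the R98S clones, with no overlap. The mean in R98S was 0.673 of that in WT (1232 ± 159 against 1830 ± 94.6, SD, n = 3), and the log2 fold change was -0.58 (SE 0.12, adjusted p = 0.0215, limma). Itga5 lies 1112 kilobases from Itgb7. In each clone, the median log2 deviation of the 30 tested genes closest to each from their own means was taken. Its mean in R98S minus its mean in WT was -0.21 around Itga5 and -0.17 around Itgb7. With this regional shift removed, both kept their call, Itga5 at -0.37 (adjusted p = 0.0727) and Itgb7 at -2.36 (adjusted p = 0.000414, limma).

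Itgal, the alpha chain of LFA-1 (chr7:127296260-127335138), was at 2503, 2360 and 1919 in WT and 2387, 2953 and 2961 in R98S. R98S clone 11 lay among the WT clones. The log2 fold change was 0.29 (95% interval -0.029 to 0.62, adjusted p = 0.194, limma). The regional shift of the 30 tested genes closest to it, taken as for Itga5, was 0.38. With that shift removed the log2 fold change of Itgal was -0.089.

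Itga4, the chain shared by the VCAM-1 and MAdCAM-1 receptors (chr2:79255426-79333123), was at 1732, 1624 and 2861 in WT and 4286, 2045 and 1424 in R98S. The R98S clones held both the highest and the lowest value. The log2 fold change was 0.21 (95% interval -0.67 to 1.09, adjusted p = 0.742, limma), and it was -0.23 without R98S clone 11. Itga4 shares 1124 exonic bases with Cerkl on the opposite strand, whose mean normalized count was 63.5. The sources used here do not state whether counting used the strand.

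Itgav, which pairs with several beta chains (chr2:83724397-83806916), was at 763.9, 645.9 and 871.7 in WT and 624.9, 778.7 and 667.0 in R98S. The groups overlapped, with a log2 fold change of -0.14 (95% interval -0.49 to 0.22, adjusted p = 0.584, limma). Itga6, a laminin receptor chain (chr2:71745616-71858416), was low, at 69.6, 21.5 and 94.1 in WT and 34.7, 108.2 and 28.7 in R98S. Its clones overlapped widely (log2 fold change -0.13, 95% interval -1.61 to 1.35, adjusted p = 0.912, limma).

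Itgam, the alpha chain of Mac-1 on myeloid cells (chr7:128062640-128118491), was close to the detection limit. It had 11, 14 and 13 reads in the WT clones and 0, 4 and 0 in the R98S clones. A count of 0 allows up to 3 reads, which was a normalized count of 2.81 in R98S clone 11 and 2.78 in R98S clone 35. Every WT clone was above every R98S clone, but the mean over the clones was below 10, so Itgam was not tested. Itgam shares 3450 exonic bases with Gm49368 on the same strand. Gm49368 is not among the genes listed, and the sources used here do not state how reads of the shared bases were counted.

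**Figure D2:**
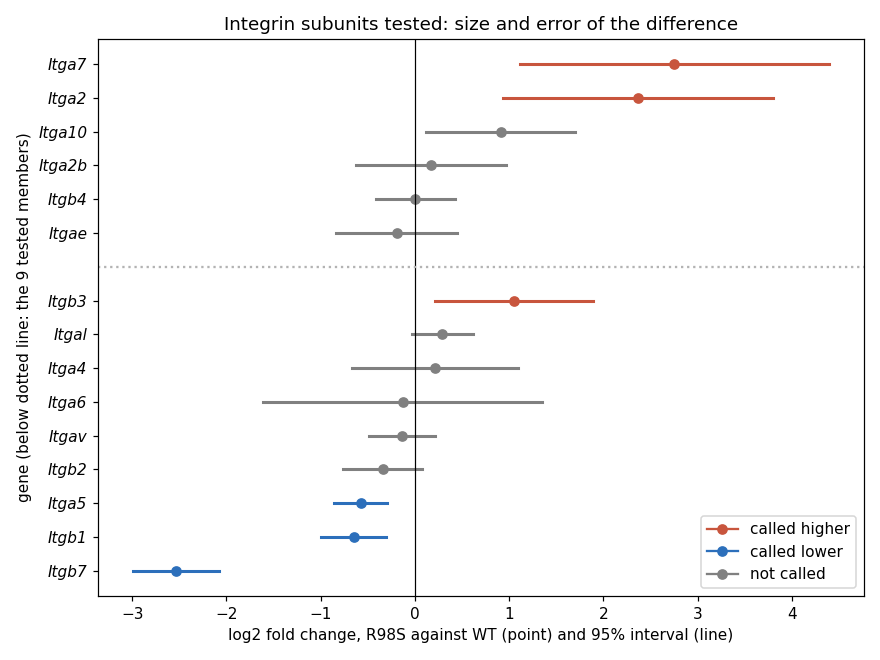
Log2 fold change of R98S against WT (horizontal axis) with its 95% interval for the 9 tested subunits, below the dotted line, and for 6 other integrin subunits, above it. Blue marks genes called lower, red genes called higher and grey genes not called. The interval of Itgb7 lies at -2.99 to -2.08, away from the other 8, and that of Itga6 is the widest of the 9, at -1.61 to 1.35.

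The clones of 1 genotype differed more for some subunits than for others. Among genes with a mean of at least 100 normalized counts, the pooled SD between clones of Itga4 stood at the 97.4th percentile and that of Itgb3 at the 97.1st. That of Itga5 stood at the 32.3rd percentile and that of Itgb1 at the 62.5th.

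Levels of different subunits were compared per kilobase of exonic length. In WT, Itgb1 led with a normalized count of 2633 ± 405 per kilobase, followed by Itgb2 with 1203 ± 56.4 and Itgb7 with 524 ± 38.1 (SD, n = 3). Itga5 (371 ± 19.2), Itgal (344 ± 46.3) and Itgb3 (286 ± 63.1) came next, and each overlapped its neighbour. Itga4 (148 ± 49.0), Itgav (70.8 ± 10.5), Itga6 (6.84) and Itgam (2.61) were lowest.

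In R98S, Itgb1 was again highest, at 1675 ± 231 per kilobase, and Itgb2 followed with 970 ± 240 (SD, n = 3). Itgb3 (647 ± 340) overlapped Itgb2 and Itgal (421 ± 50.1). Itgb7, the third in WT per kilobase of exonic length, was at 92.1 ± 25.4 and overlapped its neighbours Itga4 (185 ± 108) and Itgav (64.2 ± 7.40). As a share of the summed level of the 10 subunits per kilobase, Itgb7 was 9.38% in WT and 2.11% in R98S, and Itgb3 was 5.16% and 14.7%. The order depends on the length used. Per kilobase of coding length, Itgb7 (600.4) was sixth in WT, below Itgb3 (714), Itga4 (669) and Itgal (627), and in R98S Itgb3 (1618) was above Itgb2 (1282), while Itgb1 stayed highest in both groups.

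The partner pairs were compared by the log2 ratio of alpha to beta, with an exact two-sided permutation test over clones for each of 8 pairs. With 3 clones against 3 the smallest p is 0.1, so no pair could reach 0.05. In 4 pairs the ratios of the groups did not overlap, all at the smallest exact p of 0.1 (0.2 adjusted over the 8 pairs). The share of other gene pairs without overlap was not computed. For single genes it was 37.3% of those tested. Where a subunit had already been called, its pair ratio moves with it and is not a separate result.

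Itga4 to Itgb7 differed by 2.75 on the log2 scale. Per kilobase the ratio was 0.256, 0.208 and 0.386 in the WT clones and 4.42, 1.68 and 0.852 in the R98S clones. The lowest R98S clone was above the highest WT clone. Itgav to Itgb3 went the other way, with a difference of -1.19 and per-kilobase ratios of 0.251 ± 0.025 in WT and 0.118 ± 0.057 in R98S (SD, n = 3). Itgal to Itgb2 differed by 0.64, although neither chain was called, with ratios of 0.287 ± 0.049 and 0.445 ± 0.067 (SD, n = 3). With the regional shift removed, the single-gene log2 fold changes were -0.089 for Itgal and -0.23 for Itgb2. The pair ratio was not tested with that shift removed. Itgam to Itgb2 differed by -2.69, a value that rests on the few Itgam reads given above and on the pseudocount, since it was -3.35 with 0.5 and -1.22 with 5 in place of 1.

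The pairs with Itgb1 overlapped between the groups. Itga5 and Itgb1 both fell, and their ratio was 0.143 ± 0.017 per kilobase in WT and 0.150 ± 0.022 in R98S (SD, n = 3), a log2 difference of 0.073 (exact permutation p = 0.6). Itga4 to Itgb1 differed by 0.86 (exact permutation p = 0.2), Itgav to Itgb1 by 0.52 (exact permutation p = 0.3) and Itga6 to Itgb1 by 0.52 (exact permutation p = 0.6). The 4 alpha chains of these pairs, summed per kilobase, came to 0.232 ± 0.054 of Itgb1 in WT and 0.306 ± 0.089 in R98S (SD, n = 3, exact permutation p = 0.3). Alpha chains outside the 10 subunits were not in this sum. Of the summed level of Itgb1 and Itgb7, the beta chains that alpha4 can use, Itgb7 made up 16.8% ± 2.10 in WT and 5.19% ± 1.03 in R98S (SD, n = 3, exact permutation p = 0.1).

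**Figure D3:**
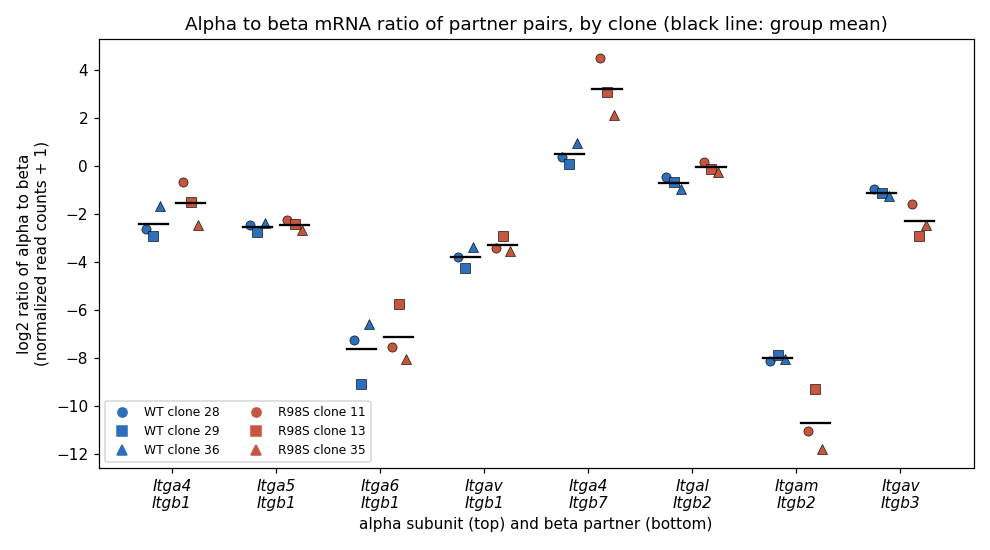
Log2 ratio of alpha to beta normalized read count + 1 (vertical axis) for the 8 partner pairs in the WT (blue) and R98S (red) clones, with a black line at each group mean. The groups are separate for Itga4 to Itgb7, Itgal to Itgb2, Itgam to Itgb2 and Itgav to Itgb3, and overlap for the 4 pairs with Itgb1.

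Of 16 other integrin subunits, 10 were below a normalized count of 10 in every clone and 6 were tested. Itga2, a collagen receptor chain, rose from 28.2 ± 25.8 to 112 ± 20.9 (SD, n = 3; log2 fold change 2.37, adjusted p = 0.0402, limma). Itga7, a laminin receptor chain, rose from 20.9 ± 25.3 to 93.2 ± 14.4 (log2 fold change 2.76, adjusted p = 0.0379, limma). Per kilobase, Itga2 reached 15.7 and Itga7 11.5 in R98S, and in both WT clone 36 was the highest of the WT clones.

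Itga2b, the platelet alpha chain that pairs with Itgb3, was abundant, at 5370, 4775 and 11723 in WT and 5321, 8669 and 9301 in R98S. The groups overlapped, with a log2 fold change of 0.17 (adjusted p = 0.768, limma). Itgb4, the partner of Itga6, was at 1613 ± 166 and 1647 ± 396 (SD, n = 3, adjusted p = 0.986, limma). Itgae, the other partner of Itgb7, was at 96.3 and 87.8 (adjusted p = 0.673, limma), and Itga10 at 29.1 and 58.0 (adjusted p = 0.112, limma).

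Of the genes that regulate integrin activation from inside the cell, activators and inhibitors together, 16 of 19 were tested, 1 was higher and 5 lower (against 10.7% and 13.1% of all genes), with a median log2 fold change of -0.23. Fyb, the adaptor ADAP, fell by 0.92 on the log2 scale (adjusted p = 0.0171, limma), Rap1b, a small GTPase, by 0.66 (adjusted p = 0.0349) and Tln2, a talin, by 0.56 (adjusted p = 0.0253). The more abundant talin Tln1 was not called (mean normalized count 26902 against 805 for Tln2, adjusted p = 0.432, limma). Fermt3, a kindlin (6680, adjusted p = 0.826), and Rap1a (4411, adjusted p = 0.124) were not called either. Itgb1bp1, which binds the Itgb1 tail and limits activation, rose by 0.49 (adjusted p = 0.0405). Of the genes that signal from bound integrins, 19 of 25 were tested, 1 was higher and 3 lower (median -0.13), a share close to the 23.9% called among all genes. Zyx, an actin adaptor of adhesion sites, fell from 5441 ± 801 to 2228 ± 384 (SD, n = 3, adjusted p = 0.00324, limma). Parvb, a parvin, fell by 1.72 (adjusted p = 0.0216) and Rac1 by 0.36 (adjusted p = 0.0573), whereas Fyn, a Src-family kinase, rose by 0.61 (adjusted p = 0.0603). The related Parvg (mean normalized count 6027, adjusted p = 0.978, limma) and Rac2 (7856, adjusted p = 0.902) were not called.

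Of 18 integrin ligands, 8 were tested, 1 was higher and 2 lower (median log2 fold change -0.11), against 10.7% and 13.1% of all genes. Spp1, which encodes osteopontin, a ligand of alphav beta3 and alpha4 beta1, was at 46218, 43334 and 26238 in WT and 74.1, 107 and 545 in R98S. No R98S clone came near a WT clone, and the log2 fold change was -7.83 (adjusted p = 0.000372, limma). Icam1 fell by 0.66 (adjusted p = 0.0717) and Icam2 rose by 0.83 (adjusted p = 0.0137), both being ligands of alphaL beta2. Of 10 membrane partners, 9 were tested, 1 was higher and 3 lower (median -0.24), again against 10.7% and 13.1%. Cd47, which associates with alphav beta3, fell from 12654 ± 1816 to 6046 ± 1029 (SD, n = 3, adjusted p = 0.00535, limma) and Bsg, basigin, fell by 0.83 (adjusted p = 0.00213). The tetraspanin Cd151 fell by 0.79 (adjusted p = 0.0731) and the tetraspanin Cd63 rose by 0.56 (adjusted p = 0.0878).

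**Figure D4:**
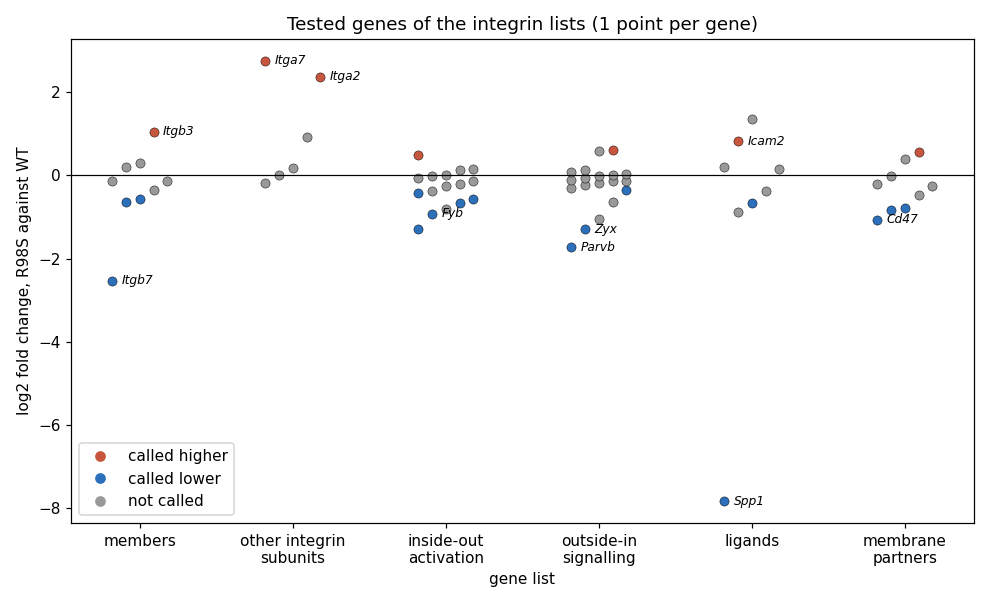
Log2 fold change of R98S against WT (vertical axis) for each tested gene of the integrin lists, 1 point per gene, with red for called higher, blue for called lower and grey for not called. Spp1, at -7.83, lies lowest of all genes drawn, and Itgb7, at -2.54, lies lowest of the integrin subunits.

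Single marker genes of blood cells also differed, some called higher and others lower in R98S. Over all genes tested, 10.7% were called higher and 13.1% lower, and the marker lists hold few tested genes. Of the mast cell and basophil markers 5 of 7 were tested, and Kit and Fcer1a had at most 3 reads. Their sum, 25269 to 29818 in WT and 13994 to 17555 in R98S, was nearly all Gata2, a transcription factor that was the only one called (27299 to 15106, log2 fold change -0.86, adjusted p = 0.00666, limma). Cpa3 (1.43), Hdc (0.44), Ms4a2 (-0.57) and Mcpt8 (-0.61) were not called. The 6 T cell markers, of which Cd3e and Cd4 had at most 3 reads, summed to 52.2 to 106 and 152 to 179, and both tested genes, Cd3d and Lck, were called higher. Cd3g, too low on average to be tested, went the other way. It was at 3.07, 3.22 and 43.0 in WT and 0.938, 1.02 and 1.85 in R98S, and only WT clone 36 had more than 3 reads. Of the 4 interleukin-3 receptor and leukocyte genes, which summed to 98118 to 118050 and 134080 to 158700, Csf2rb and Csf2rb2 were called higher, Ptprc was called lower (11217 to 4471, log2 fold change -1.33, adjusted p = 0.00894, limma) and Il3ra was not called.

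The macrophage and granulocyte markers summed to 180 to 274 in WT and 90.1 to 254 in R98S, mostly Cd68, which was not called. Lyz2, a lysozyme, was low and was called lower (mean 23.9 to 0.930, log2 fold change -3.34, adjusted p = 0.0366, limma), and Mpo, myeloperoxidase, was at means of 6.55 and 0.340 and was not tested. Elane and Ly6g had at most 3 reads. Csf1r, not tested either, was at means of 4.83 in WT and 4.40 in R98S. Cd68 was at 156, 238 and 179 in WT clones 28, 29 and 36, and at 82.6, 249 and 126 in R98S clones 11, 13 and 35. Itgam, also a myeloid gene, was lower in all R98S clones, which the markers of this list did not share as a set. The 5 stromal markers summed to 13.3 to 25.8 and 10.2 to 21.4, and none was tested. The part of these markers in the integrin differences was not tested.

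The genes whose values across the 6 clones were most like those of Itgb7 and Itgb1 were looked up among 9503 genes, as a description. For Itgb7 they were Cd180, a surface receptor of B cells (Pearson r 0.999), Gtl3 (0.997) and 1110007C09Rik (0.997). Cd180 went from 458 ± 53.7 in WT to 47.5 ± 16.1 in R98S (SD, n = 3). For Itgb1 they were Zbtb22 (0.997), Epn1, an endocytosis adaptor (0.997), and Dnaja2, a co-chaperone (0.993). The clones fall into 2 genotypes and this alone raises such a value.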

How the data were processed

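RNA of 6 Ba/F3 clones was sequenced from TruSeq stranded mRNA libraries. Per the submitters' processing notes, which name Bowtie2, TopHat, SAMtools, HTSeq and DESeq2, reads matching ribosomal or transfer RNA were removed and the rest were aligned to mm10 (GRCm38). The annotation and the strand setting of the counting are not given in the sources used here. What the authors deposited is a signal, the read count of each gene over a size factor from DESeq2. In each library 100% of the values were whole multiples of 1 step within a relative tolerance of 1e-06, which gave back the reads.

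Genes with a mean of at least 10 were tested on log2(value + 1) by limma 3.58.1 with a trend (R 4.3.3), two-sided, with Benjamini-Hochberg adjustment over 11550 genes and a threshold of 0.1. A fold change on this scale understates that of low genes. Tests were checked on simulated data. As alternatives, edgeR 4.0.16 and DESeq2 1.42.0 were run on the recovered reads, and other pseudocounts, filters, scalings, a threshold of 0.05 and leaving out each clone were tried. Coordinates and lengths come from GENCODE M21, in which 36776 listed symbols matched 1 gene, and promoters from RefSeq (GRCm38.p6).

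Named were all 10 subunits, other subunits with a mean of at least 10, up to 3 called genes per direction of each list with a mean of at least 100, and the 3 genes most like Itgb7 and Itgb1. The subunits, pairs and lists were chosen with earlier results of these data known. Counts of clones with the same genotype differed beyond sampling noise (chi-square over its degrees of freedom, 18.7 to 65.2), so each counts as 1 replicate. Intervals and floors from reads cover counting error only. The summed levels of the B-cell precursor and megakaryocyte markers are not reported here.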

Additional observations from a re-analysis of the deposited data

How the results depend on the processing

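Itgb7, Itgb1 and Itga5 kept their direction and call in all 16 alternatives run, with log2 fold changes of -2.74 to -2.35, -0.76 to -0.54 and -0.67 to -0.37. Itgb3 stayed positive (0.67 to 1.49) but lost its call in 5 of the 16, and at an adjusted p of 0.05. The number of genes called was 2755, against 1722 at an adjusted p of 0.05, and with 1 clone left out it was lowest without WT clone 28, at 1322, and highest without R98S clone 13, at 3213, with 1457 without WT clone 29 and 1560 without R98S clone 11. Leaving out 1 clone moved Itga4 between -0.23 and 0.56, Itga6 between -0.75 and 0.29, the log2 difference of Itga5 to Itgb1 between -0.027 and 0.18 and that of Itga6 to Itgb1 between -0.21 and 1.05, so these directions are not fixed. Itgal turned to -0.089 with the shift of its 30 nearest genes removed. The cause of these changes was not tested. Of 144 single-gene comparisons 133 kept direction and side of the threshold. Without the filter on low values Itgam was called as well (log2 fold change -3.03, adjusted p = 0.0217, limma), from at most 14 reads in a clone. Scaling by totals or upper quartiles moved the median of all genes by 0.021 and 0.042. No paired analysis was possible because the WT and R98S clones carry different numbers.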

Other observations

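Other pairs were added after the data were seen, with values only. Itga2b to Itgb3 had a per-kilobase ratio of 4.48 ± 1.32 in WT and 2.46 ± 0.772 in R98S (SD, n = 3), and the groups did not overlap. Itgae to Itgb7 was at 0.0404 in WT and 0.218 in R98S, without overlap. Itgb3 and Itgb7 had already been called and Itga2b and Itgae had not, so neither ratio is a separate result. The share of other gene pairs without overlap was not computed. Itga6 to Itgb4 was at 0.0293 and 0.0251, with overlap.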
